A study of Mus musculus with 6 samples.

Results

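The 45 genes described here make up the contractile, calcium-handling and energy machinery of skeletal muscle. They were taken by symbol from a deposited expression table of 18939 mouse genes, and all 45 were found. The table covers 6 libraries of messenger RNA from mouse skin. The CKO group holds 3 libraries (replicates 1, 2 and 5) with the genotype given as a conditional knockout of VAMP7, a vesicle fusion protein, in basophils. The FLOX group holds 3 libraries (replicates 2, 3 and 5) that are titled FLOX and carry a wild-type genotype label, so whether they hold a floxed allele is known from the title alone. The series title places both groups in an MC903-OVA model, MC903 being the vitamin D analogue calcipotriol, which inflames mouse skin when painted on, and OVA the model antigen ovalbumin. Not given in the sources used here: the Cre driver, strain, sex, age, body site and sampling time. Whether each library came from its own animal is likewise unstated, so p-values measure the spread between these samples only, which may be technical. Vamp7 measured 19.7, 19.1 and 19.7 FPKM in CKO replicates 1, 2 and 5 and 20.4, 21.5 and 20.8 FPKM in FLOX replicates 2, 3 and 5 (log2 fold change -0.09, SE 0.07, limma adjusted p = 0.475), so whole skin gives no check of a deletion limited to basophils. Values are FPKM, fragments mapped to a gene scaled by transcript length and by library size. Read depth is unknown, so no counting interval is given.

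Skeletal muscle fibres are filled with sarcomeres, in which myosin thick filaments pull on actin thin filaments. A nerve impulse opens calcium release from the sarcoplasmic reticulum, calcium binds troponin on the thin filament, and a calcium pump ends the contraction. Fast and slow fibres build the same structure from different paralogs of myosin, troponin and the light chains. Mouse skin carries a thin sheet of such muscle, the panniculus carnosus, beneath the dermis.

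These genes were measured at higher levels in CKO skin, library by library. The summed FPKM of the 45 genes was 2160 in CKO replicate 1, 3215 in CKO replicate 2 and 1264 in CKO replicate 5, against 988 in FLOX replicate 2, 830.1 in FLOX replicate 3 and 495 in FLOX replicate 5. All CKO sums lay above all FLOX sums, with group means of 2213 ± 977 and 771 ± 252 FPKM (SD, n = 3 each), a ratio of 2.87. The sum differed 2.54-fold between the highest and lowest CKO library and 2.0-fold between the highest and lowest FLOX library, but 1.28-fold between CKO replicate 5 and FLOX replicate 2. The 45 genes took 0.212 to 0.578% of all FPKM in CKO libraries and 0.0847 to 0.167% in FLOX libraries. In bulk skin, fewer muscle fibres in the piece of tissue and less RNA per fibre cannot be told apart.

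Of the 45 genes, 41 had at least 1 FPKM in at least 3 libraries and were tested with the rest of the table by limma on log2(FPKM + 1), with Benjamini-Hochberg adjustment over 12994 genes. The other 4 (Myh7, Myl3, Ttn and Ampd1) fell below that level. All 41 had positive log2 fold changes (CKO minus FLOX) with a median of 1.38, against a median of 0.03 over all tested genes. Past an adjusted p of 0.05 were 2 of them, Myh2 and Jsrp1, or 4.88%, where 0.354% of all tested genes were called higher and 0.954% were called in either direction. None was called lower, where 0.6% of all tested genes were. A further 23 had limma adjusted p-values between 0.05 and 0.1. At an unadjusted limma p under 0.05, 39 of the 41 were higher, where 12.6% of all tested genes were. All 3 CKO values lay above all 3 FLOX values for 36 of the 41, where 15.5% of all tested genes showed this. The genes varied together across libraries, so these counts do not stand for independent observations. The 45 genes were also chosen with earlier results of these data known, so the counts beside the table-wide shares are descriptions only. The count of called genes turned on single libraries: it was 22 without CKO replicate 5, 1 without CKO replicate 1 and 0 without CKO replicate 2, FLOX replicate 2, FLOX replicate 3 or FLOX replicate 5. Calls over the whole table moved too: 1.74% of all tested genes were called higher without CKO replicate 5 and 0.536% without CKO replicate 1. The share was 0.00776% without CKO replicate 2 and 0.0155% without FLOX replicate 5. Without FLOX replicate 2 or FLOX replicate 3 no gene of the table was called.

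**Figure D1:**
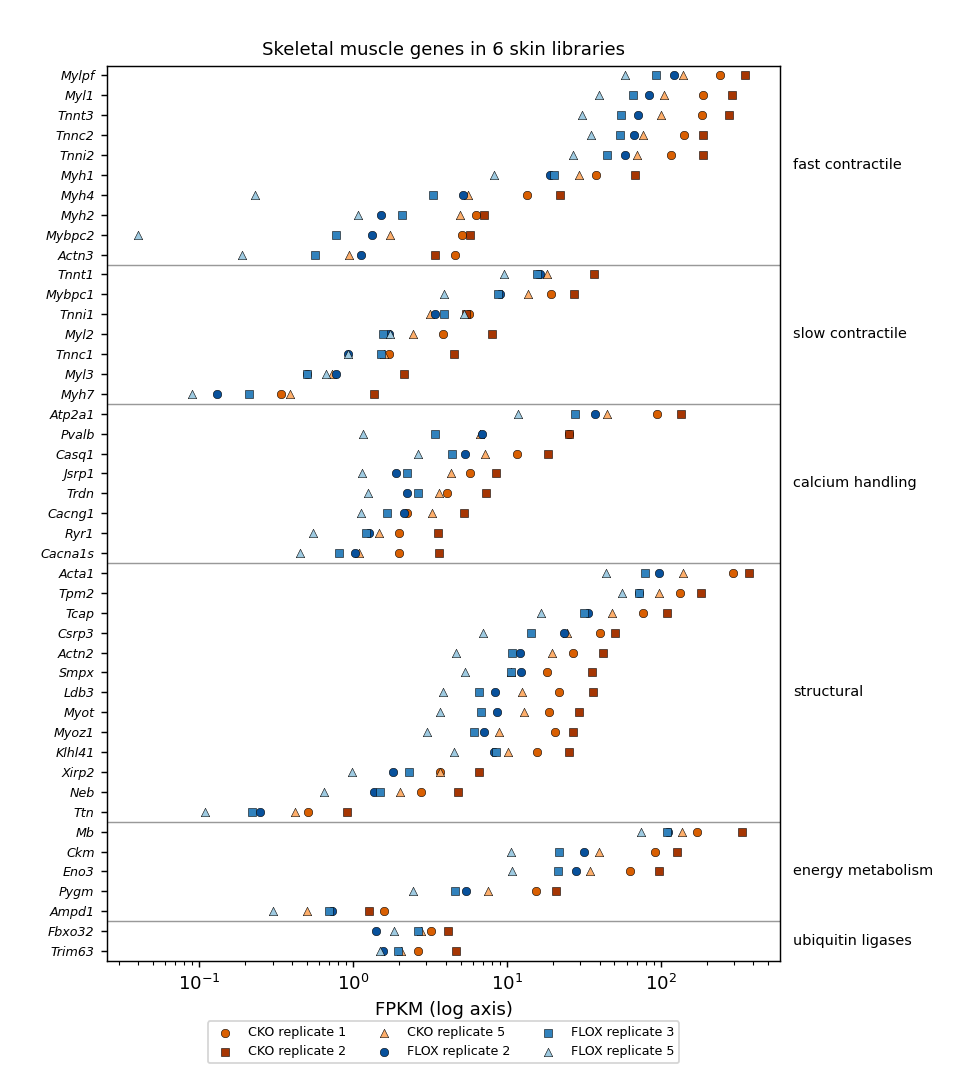
FPKM of each of the 45 skeletal muscle genes (rows, grouped by role) on a log axis, with a point per library; orange and brown are CKO and blue shades FLOX libraries. CKO replicate 2 was the highest library for 41 genes and FLOX replicate 5 the lowest for 41.

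The libraries kept nearly the same order from gene to gene. CKO replicate 2 was highest for 41 of the 45 genes and CKO replicate 1 for the other 4 (Actn3, Tnni1, Pvalb and Ampd1). FLOX replicate 5 was lowest for 41. For 24 genes the whole order was CKO replicate 2, CKO replicate 1, CKO replicate 5, FLOX replicate 2, FLOX replicate 3, FLOX replicate 5. The ranking of the 45 genes by level was also similar in every library, with Spearman correlations across genes of 0.895 to 0.990 between pairs of libraries. That similarity includes the fixed differences between genes that any sample of this tissue shares. CKO replicate 5, the CKO library closest to FLOX, still exceeded FLOX replicate 2 for 39 genes, by a median of 1.32-fold over the 45 and a range of 0.685 to 3.24. The groups overlapped for 7 genes (Actn3, Myl3, Tnnt1, Tnni1, Pvalb, Smpx and Ampd1) and were apart for 38, each with CKO above. Among the 41 tested members 36 were apart. Of all tested genes, 15.5% were apart with CKO above and 27% in either direction.

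Promoter sequence of some of these genes is shown as a description. Its part in the differences between libraries was not tested. The 150 bases before the annotated start are from the RefSeq promoter table (build GRCm38.p6), 5′ to 3′ on the gene's strand. Capitals mark matches on either strand to a TATA box (TATAAA), an E-box (CANNTG, the class bound by MyoD-type factors), a MEF2 motif or a CArG box, the motif of serum response factor. The genes are the actin of skeletal fibres (Acta1), a fast light chain (Mylpf), a fast myosin (Myh4), the fast-fibre calcium pump (Atp2a1) and the slow-type myosin binding protein C (Mybpc1).
Acta1, chr8:123894776-123894925, minus strand: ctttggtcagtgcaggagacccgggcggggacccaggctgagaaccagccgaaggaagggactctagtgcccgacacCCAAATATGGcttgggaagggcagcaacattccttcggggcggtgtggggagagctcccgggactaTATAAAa
Mylpf, chr7:127211458-127211607, plus strand: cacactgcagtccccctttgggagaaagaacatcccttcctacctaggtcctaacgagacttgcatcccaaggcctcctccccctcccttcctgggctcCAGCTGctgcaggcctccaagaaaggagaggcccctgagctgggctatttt
Myh4, chr11:67237662-67237811, plus strand: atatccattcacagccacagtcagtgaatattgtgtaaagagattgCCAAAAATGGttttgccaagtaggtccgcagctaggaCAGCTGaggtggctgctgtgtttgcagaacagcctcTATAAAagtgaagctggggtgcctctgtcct
Atp2a1, chr7:126463074-126463223, minus strand: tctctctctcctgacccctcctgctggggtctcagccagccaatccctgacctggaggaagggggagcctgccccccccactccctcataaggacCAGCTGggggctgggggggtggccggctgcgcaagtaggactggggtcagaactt
Mybpc1, chr10:88605153-88605302, minus strand: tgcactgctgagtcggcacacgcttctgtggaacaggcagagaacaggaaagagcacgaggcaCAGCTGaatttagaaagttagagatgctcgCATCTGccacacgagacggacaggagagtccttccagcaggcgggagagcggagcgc
Mylpf, Myh4, Atp2a1 and Mybpc1 each held the E-box CAGCTG in this stretch, and Acta1 and Myh4 held a CArG box. Of the 45 genes, 33 were in the promoter table, with 41 annotated starts between them. In the 250 bases before those starts, CAGCTG was found in 43.9%, against 13.0% of all 32851 promoters in the table. A MEF2 motif was found in 14.6% against 2.92%, a CArG box in 12.2% against 1.47%, a TATA box in 17.1% against 12.4%, and any E-box, CAGCTG included, in 82.9% against 66.2%. A TATA box and a MEF2 motif can share bases. Myh2 had no match to any of the 5 motifs in its window. A match is a description of the letters, and binding was not measured.

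Genes of the fast contractile apparatus had a median log2 fold change of 1.47 over 10 tested members, all positive, and 1 of them rose. Myh2 (NCBI Gene ID 17882), which encodes the myosin heavy chain of fast oxidative (type IIA) fibres, measured 6.33, 7.07 and 4.95 FPKM in CKO replicates 1, 2 and 5, and 1.53, 2.09 and 1.08 FPKM in FLOX replicates 2, 3 and 5. All CKO values lay well above all FLOX values, and its CKO values differed less from each other than those of most other members. The means were 6.12 ± 1.08 and 1.57 ± 0.506 FPKM (SD, n = 3 each), and the log2 fold change was 1.48 (SE 0.17, limma adjusted p = 0.047). The adjusted p ranged from 0.0117 to 0.162 over the alternatives tried, and Myh2 did not pass without CKO replicate 2 (0.0932), FLOX replicate 2 (0.162), FLOX replicate 3 (0.0553) or FLOX replicate 5 (0.0865).

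The other fast myosins had larger spread. Myh1, the type IIX myosin and the most abundant heavy chain gene here, measured 37.9, 68.4 and 29.5 FPKM in CKO libraries and 19.0, 20.3 and 8.29 FPKM in FLOX libraries (limma adjusted p = 0.0849). Myh4, the myosin of the fastest (type IIB) fibres, measured 13.5, 22.1 and 5.55 FPKM against 5.15, 3.31 and 0.23 FPKM (adjusted p = 0.129). CKO replicate 5 and FLOX replicate 2 were close to each other for Myh4, while FLOX replicate 5 had almost none. Among the summed FPKM of Myh1, Myh2, Myh4 and slow Myh7, Myh1 made up 65.2 to 73.0% in CKO libraries and 73.6 to 85.6% in FLOX libraries, so these ranges did not overlap. The share of Myh4 ran from 13.7 to 23.3% and from 2.37 to 20.0%, and that of Myh2 from 7.14 to 12.3% and from 5.93 to 11.1%. The fast myosin genes are close copies of each other, and how the authors divided short reads between them is not given, so the split among them is uncertain.

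Fast light chains and troponins were the most abundant fast members. Mylpf (NCBI Gene ID 17907), the fast regulatory light chain, measured 244, 352 and 139.6 FPKM in CKO replicates 1, 2 and 5, and 121, 93.5 and 58.9 FPKM in FLOX replicates 2, 3 and 5. Myl1, the fast essential light chain, measured 187, 289 and 105 FPKM against 84.0, 65.8 and 39.6 FPKM. Both genes separated the groups, with CKO replicate 5 nearest to FLOX, where 15.5% of all tested genes had all CKO above all FLOX. Neither light chain gene passed the test (log2 fold changes 1.38, SE 0.36, and 1.55, SE 0.39, limma adjusted p = 0.0844 and 0.0781). Tnnt3, Tnni2 and Tnnc2, the fast forms of the troponin subunits that bind tropomyosin, hold back actin and bind calcium, averaged 188 ± 88.7, 125 ± 59.9 and 136 ± 56.0 FPKM in CKO libraries and 52.5 ± 20.6, 43.3 ± 15.8 and 52.2 ± 16.2 FPKM in FLOX libraries. Mybpc2, the fast myosin binding protein C, and Actn3, the fast-fibre alpha-actinin, were low, with means of 4.22 ± 2.16 and 2.97 ± 1.86 FPKM against 0.717 ± 0.647 and 0.627 ± 0.468 FPKM. None of these 5 passed (limma adjusted p = 0.0667 to 0.135).

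Genes of the slow contractile apparatus had a median log2 fold change of 0.69 over 5 tested members, from 0.13 for Tnni1 to 1.38 for Mybpc1. Whether this differs from the fast group was not tested. The folds of means of all 7 members ran from 1.13 (Tnni1) to 4.86 (Myh7, too low to be tested). None of the 5 passed, and the limma adjusted p-values ran from 0.0708 to 0.769. Tnnt1 (NCBI Gene ID 21955), slow troponin T, measured 16.0, 37.0 and 18.1 FPKM in CKO replicates 1, 2 and 5, and 16.3, 15.7 and 9.55 FPKM in FLOX replicates 2, 3 and 5. CKO replicate 2 stood far above the rest, and the groups overlapped (log2 fold change 0.67, SE 0.32, adjusted p = 0.274). Mybpc1 (NCBI Gene ID 109272), the slow-type myosin binding protein C, measured 19.3, 27.5 and 13.7 FPKM against 9.02, 8.79 and 3.92 FPKM, with the groups apart (1.38, SE 0.32, adjusted p = 0.0708).

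Slow troponin I was the member with the smallest difference. Tnni1 measured 5.67, 5.41 and 3.17 FPKM in CKO libraries and 3.40, 3.92 and 5.28 FPKM in FLOX libraries, so FLOX replicate 5, lowest for nearly every other gene, was the highest FLOX library here and CKO replicate 5 the lowest of all 6 (log2 fold change 0.13, SE 0.21, limma adjusted p = 0.769). Myl2, the slow regulatory light chain, measured 3.83, 7.95 and 2.44 FPKM against 1.72, 1.56 and 1.73 FPKM. Tnnc1, the troponin C of slow and cardiac muscle, measured 1.71, 4.53 and 1.60 FPKM against 0.93, 1.51 and 0.93 FPKM. For Myl2 the 3 FLOX libraries were nearly equal, although the summed muscle signal varied 2.0-fold among them. Myh7, the slow myosin heavy chain, was at 0.34 to 1.36 FPKM in CKO and 0.09 to 0.21 FPKM in FLOX libraries, and Myl3, the slow essential light chain, at 0.5 to 2.13 and 0.5 to 0.78 FPKM, both too low to be tested. CKO replicate 2 was the highest library for every slow member except Tnni1.

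**Figure D2:**
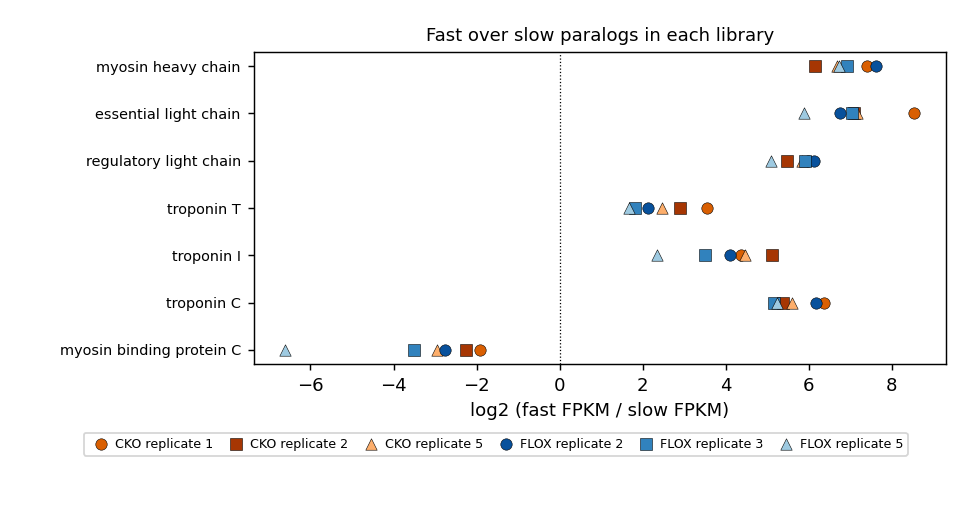
Log2 ratio of fast over slow paralog FPKM in each library (points) for 7 paralog pairs; the dotted line marks equal levels. The CKO libraries lie above the FLOX libraries for the essential light chain, troponin T and troponin I, and overlap them for the other 4 pairs.

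Fast over slow ratios were taken within each library, which cancels the scaling of that library. Fast paralogs exceeded their slow partners in every library for 6 of 7 pairs, and myosin binding protein C was the exception, with the slow-type gene higher in all 6. For troponin T the log2 ratio of Tnnt3 to Tnnt1 was 3.54, 2.91 and 2.47 in CKO replicates 1, 2 and 5, and 2.13, 1.82 and 1.68 in FLOX replicates 2, 3 and 5. For troponin I the ratio of Tnni2 to Tnni1 was 4.36, 5.12 and 4.46 in CKO and 4.10, 3.51 and 2.35 in FLOX libraries. The CKO libraries were thus higher in both pairs, by 1.10 and 1.33 on the log2 scale between group means. The essential light chain pair was also apart (group means 7.60 ± 0.82 and 6.56 ± 0.60), but rests on a Myl3 level below 1 FPKM in 5 libraries. For troponin C the group means were 5.78 ± 0.52 and 5.53 ± 0.56, for the regulatory light chain 5.77 ± 0.27 and 5.71 ± 0.55, and for the myosin heavy chains (Myh1, Myh2 and Myh4 summed, over Myh7) 6.75 ± 0.62 and 7.10 ± 0.47, with the groups overlapping each time. Myosin binding protein C also overlapped, at -2.37 ± 0.54 and -4.29 ± 2.05. The 3 pairs that were apart and the 4 that were not are given as descriptions, and no test was run on the ratios.

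Calcium-handling genes had a median log2 fold change of 1.15 over 8 tested members, and 1 of them rose. Jsrp1 (NCBI Gene ID 71912), a protein of the junctional sarcoplasmic reticulum that binds the calcium release machinery, measured 5.79, 8.50 and 4.36 FPKM in CKO replicates 1, 2 and 5, and 1.90, 2.26 and 1.14 FPKM in FLOX replicates 2, 3 and 5. The groups were well apart, with means of 6.22 ± 2.10 and 1.77 ± 0.572 FPKM (log2 fold change 1.37, SE 0.23, limma adjusted p = 0.0489). Over the alternatives the adjusted p ran from 0.0176 to 0.162. Jsrp1 passed without CKO replicate 5 (0.032) and did not pass when any other library was left out: it was 0.0673 without CKO replicate 1, 0.113 without CKO replicate 2, 0.162 without FLOX replicate 2, 0.0755 without FLOX replicate 3 and 0.102 without FLOX replicate 5.

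The calcium pump and the calcium buffer had the highest means over all 6 libraries among the calcium-handling genes. Atp2a1 (NCBI Gene ID 11937), which encodes SERCA1, the pump that returns calcium to the reticulum of fast fibres, measured 94.1, 135.7 and 44.9 FPKM in CKO libraries and 37.2, 27.6 and 11.8 FPKM in FLOX libraries (log2 fold change 1.80, SE 0.48, limma adjusted p = 0.0885). Pvalb, parvalbumin, the soluble calcium buffer of fast fibres, measured 25.4, 25.3 and 6.64 FPKM against 6.90, 3.42 and 1.16 FPKM. No other tested member had a larger log2 fold change than Pvalb (2.04, SE 0.59), yet CKO replicate 5 lay below FLOX replicate 2, and it did not pass (adjusted p = 0.105). Casq1, the calcium store protein calsequestrin of fast fibres, had means of 12.4 ± 5.65 and 4.15 ± 1.38 FPKM, and exceeded Pvalb in CKO replicate 5, FLOX replicate 3 and FLOX replicate 5.

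Genes of the release channel complex were low. Ryr1, the release channel itself, had means of 2.35 ± 1.09 and 1.01 ± 0.403 FPKM in CKO and FLOX skin, and Cacna1s, the voltage-sensing channel subunit that opens it, 2.24 ± 1.29 and 0.763 ± 0.293 FPKM. Cacng1, a further subunit of the voltage sensor, had 3.59 ± 1.54 and 1.65 ± 0.510 FPKM, and Trdn, triadin, which anchors calsequestrin at the channel, 5.02 ± 2.04 and 2.04 ± 0.714 FPKM. Each of the 4 separated the groups and none passed (limma adjusted p = 0.0885 to 0.154). Over all tested genes, 15.5% had every CKO value above every FLOX value. On the log2(FPKM + 1) scale the change of such low genes is understated, and their folds of means were 2.18 to 2.94.

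**Figure D3:**
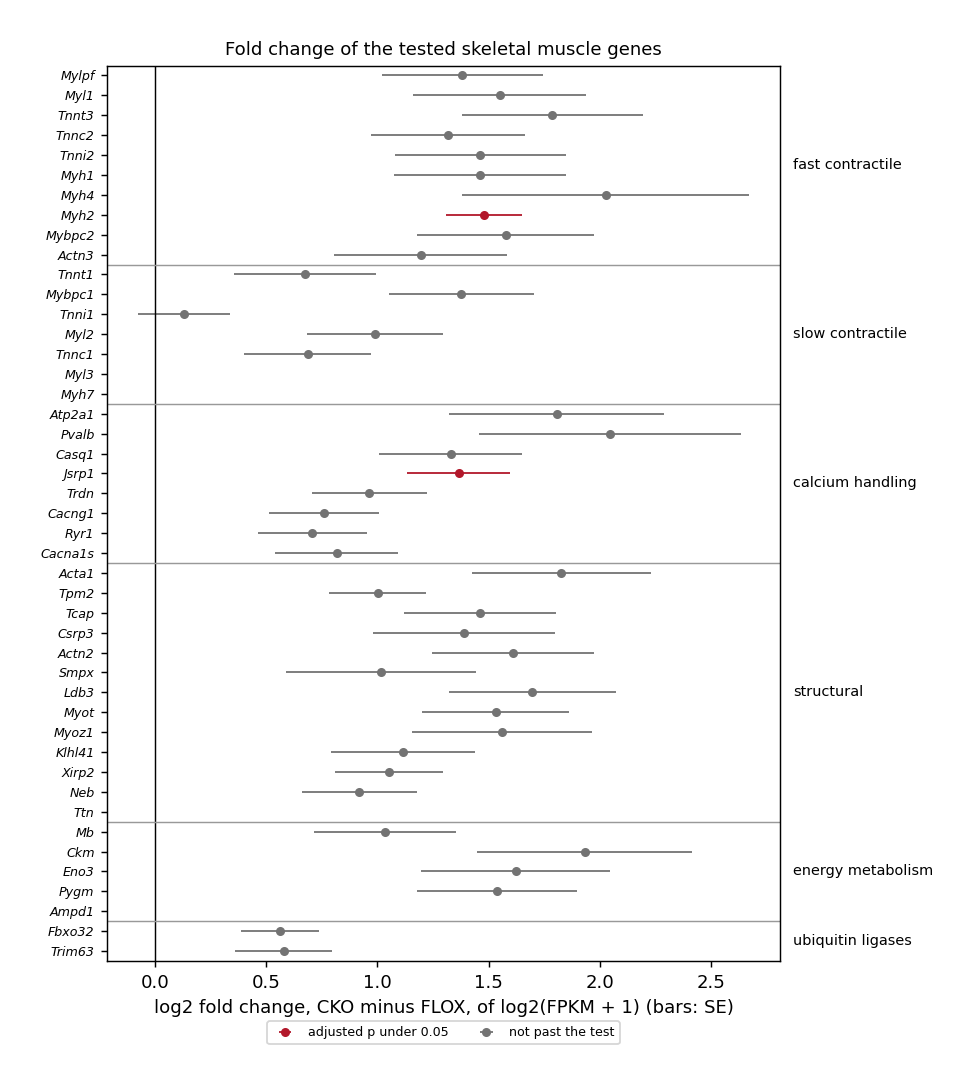
Log2 fold change (CKO minus FLOX, on log2(FPKM + 1)) of the 41 tested genes with its standard error as a bar, grouped by role; red points passed an adjusted p of 0.05. All points lie to the right of 0, Myh2 and Jsrp1 passed, and Myh7, Myl3, Ttn and Ampd1, which were not tested, have no point.

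Structural genes of the thin filament, Z-disc and titin system had a median log2 fold change of 1.43 over 12 tested members, and none passed. Acta1 (NCBI Gene ID 11459), skeletal alpha-actin, measured 296, 377 and 140.3 FPKM in CKO replicates 1, 2 and 5, and 97.8, 78.9 and 44.1 FPKM in FLOX replicates 2, 3 and 5. It had the highest structural mean in both groups, although Tpm2 exceeded it in FLOX replicate 5, and the groups were apart (log2 fold change 1.83, SE 0.40, limma adjusted p = 0.0645). Acta1 shares much of its sequence with other actin genes, so reads can be shared. Acta1 made up 11.1 to 13.7% of the summed FPKM of the 45 genes in CKO libraries and 8.90 to 9.89% in FLOX libraries.

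Tpm2 (NCBI Gene ID 22004), beta-tropomyosin, which lies along the thin filament and is also used by smooth muscle, measured 132, 183 and 97.4 FPKM against 71.7, 72.3 and 55.7 FPKM. Its fold of means, 2.07, was the smallest of the structural group, and its FLOX values varied little (log2 fold change 1.00, SE 0.22, limma adjusted p = 0.0645). Z-disc genes were close together: Tcap (telethonin), Actn2 (alpha-actinin-2), Ldb3 (a PDZ-LIM protein), Myot (myotilin) and Myoz1 (a calcineurin-binding Z-disc protein of fast fibres) had log2 fold changes of 1.46 to 1.70. Of these, Tcap was the most abundant, at 77.8 ± 30.6 and 27.3 ± 9.32 FPKM. Csrp3, a LIM protein of the Z-disc, had means of 38.3 ± 12.8 and 15.0 ± 8.29 FPKM, and Smpx, a small costamere protein, 21.5 ± 12.8 and 9.47 ± 3.68 FPKM with overlapping groups. Klhl41, which stabilises nebulin, had 17.0 ± 7.56 and 7.08 ± 2.22 FPKM.

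The giant filament genes were measured at low FPKM, a unit that divides by transcript length. Neb, nebulin, had means of 3.19 ± 1.43 and 1.17 ± 0.454 FPKM, and Ttn, titin, measured 0.42 to 0.91 FPKM in CKO and 0.11 to 0.25 FPKM in FLOX libraries. Xirp2, an actin-binding repeat protein, had 4.64 ± 1.67 and 1.70 ± 0.663 FPKM (limma adjusted p = 0.0683). All 3 genes separated the groups with CKO above, where 15.5% of all tested genes did, though Ttn itself was not tested.

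Energy genes had a median log2 fold change of 1.58 over 4 tested members, and none passed. Mb (NCBI Gene ID 17189), myoglobin, the oxygen store of oxidative fibres, measured 171, 335 and 138 FPKM in CKO replicates 1, 2 and 5, and 112, 109 and 74.3 FPKM in FLOX replicates 2, 3 and 5. The groups were apart but CKO replicate 5 and FLOX replicate 2 were near each other (log2 fold change 1.03, SE 0.32, limma adjusted p = 0.12). Its share of the summed FPKM of the 45 genes ran the other way from that of Acta1, at 7.90 to 10.9% in CKO and 11.3 to 15.0% in FLOX libraries.

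Ckm (NCBI Gene ID 12715), muscle creatine kinase, which regenerates ATP at the filaments, measured 91.4, 127 and 39.7 FPKM against 31.8, 21.8 and 10.7 FPKM (log2 fold change 1.93, SE 0.48, limma adjusted p = 0.0781). Its 4.03-fold difference of means was the largest of the energy group, against 2.18-fold for Mb. Eno3, the muscle enolase of glycolysis, had means of 65.2 ± 31.5 and 20.2 ± 8.76 FPKM, and Pygm, the muscle glycogen phosphorylase, 14.6 ± 6.68 and 4.17 ± 1.54 FPKM. Ampd1, muscle AMP deaminase, was too low to be tested and overlapped, at 0.5 to 1.59 and 0.3 to 0.73 FPKM.

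Of the role groups, the 2 ubiquitin ligase genes, known for their rise in muscle wasting, had the smallest median log2 fold change (0.57), next to 0.69 for the slow group, with no test between groups. The log2(FPKM + 1) scale understates the change of low genes, the ligases and several slow members among them. Median folds of means were 1.78 for the ligases and 2.33 for the slow group, against 2.85 to 3.33 for the other role groups. Trim63 (MuRF1) measured 2.64, 4.65 and 2.05 FPKM in CKO replicates 1, 2 and 5, and 1.56, 1.96 and 1.49 FPKM in FLOX replicates 2, 3 and 5. Fbxo32 (atrogin-1) measured 3.21, 4.12 and 2.78 FPKM against 1.42, 2.66 and 1.86 FPKM. Both separated the groups by a narrow margin, where 15.5% of all tested genes had all CKO values above all FLOX values. Neither ligase gene passed (log2 fold changes 0.58, SE 0.22, and 0.56, SE 0.18, limma adjusted p = 0.18 and 0.125). Their folds of means were 1.86 and 1.70, against a median of 2.86 over the 45 genes.

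**Figure D4:**
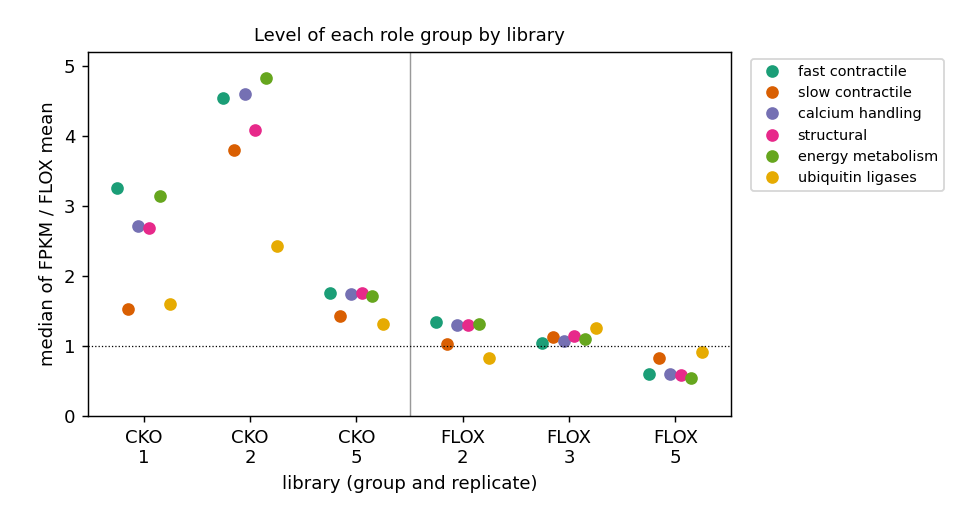
Median over the members of each role group of FPKM divided by the FLOX mean of that gene, for each library; the dotted line is the FLOX mean. In CKO replicate 2 the medians run from 2.43 (ubiquitin ligases) and 3.80 (slow contractile) to 4.84 (energy metabolism).

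Set against the FLOX mean of each gene, the fast, calcium, structural and energy groups gave similar medians within a library. They were 2.68 to 3.25 in CKO replicate 1, 4.09 to 4.84 in CKO replicate 2 and 1.71 to 1.76 in CKO replicate 5. The slow group had 1.52, 3.80 and 1.42 in the same libraries. In CKO replicate 1 the slow group was therefore closer to the ubiquitin ligases (1.60) than to the fast group (3.25).

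Skeletal muscle genes outside the 45 were also higher in CKO libraries, without a gene past the test. Of 87 such genes in 7 lists, chosen with earlier results of these data known, 58 were tested, with a median log2 fold change of 0.81. Of the 58, 56 had positive log2 fold changes, where 7289 of all 12994 tested genes did. At an unadjusted limma p under 0.05, 43 were higher, where 12.6% of all tested genes were. Among 17 tested sarcomere genes the median was 1.01, with the small heat shock protein gene Hspb7 at 23.1 ± 7.37 and 8.11 ± 3.62 FPKM and the Z-disc gene Myoz2 at 13.8 ± 5.13 and 5.15 ± 1.23 FPKM. Among 10 excitation and contraction genes it was 0.86, with Sln, sarcolipin, which inhibits the calcium pump, at 17.5 ± 8.52 and 8.78 ± 2.96 FPKM and Tmem38a, a cation channel of the reticulum, at 13.7 ± 5.01 and 5.96 ± 1.07 FPKM. Among 12 energy genes it was 1.10, with the muscle phosphoglycerate mutase gene Pgam2 at 35.4 ± 15.2 and 13.5 ± 6.21 FPKM and Cox8b, a subunit of cytochrome oxidase in muscle, at 28.7 ± 13.3 and 11.7 ± 2.63 FPKM. Of 9 membrane and cytoskeleton genes 8 were positive, with a median of 0.40, and Des, desmin, measured 48.4 ± 17.5 and 20.1 ± 6.75 FPKM.

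Genes of the nerve contact, of muscle stem cells and of new fibres were low. At the neuromuscular junction 3 of 9 genes could be tested, with a median log2 fold change of 0.13: Rapsn, which clusters the acetylcholine receptor, measured 2.79 ± 0.369 and 2.73 ± 0.226 FPKM, and the receptor subunit gene Chrnb1 2.67 ± 0.0458 and 2.11 ± 0.302 FPKM. Of 12 myogenic regulator and satellite cell genes 3 could be tested, with a median of 0.50, and Mef2c measured 7.89 ± 1.27 and 5.87 ± 0.342 FPKM and Myf6, a regulator kept in mature fibres, 2.56 ± 1.19 and 1.43 ± 0.350 FPKM. Pax7, the satellite cell factor, did not exceed 0.05 FPKM in any library. Of 7 genes of embryonic or regenerating muscle 4 could be tested, with a median of 0.36: Actc1, cardiac alpha-actin, was at 7.58 FPKM in CKO replicate 2 and 0.38 to 1.99 FPKM elsewhere, and Tnnt2, cardiac troponin T, at 2.62 ± 0.882 and 2.93 ± 0.945 FPKM. The perinatal myosin gene Myh8 did not exceed 0.1 FPKM.

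**Figure D5:**
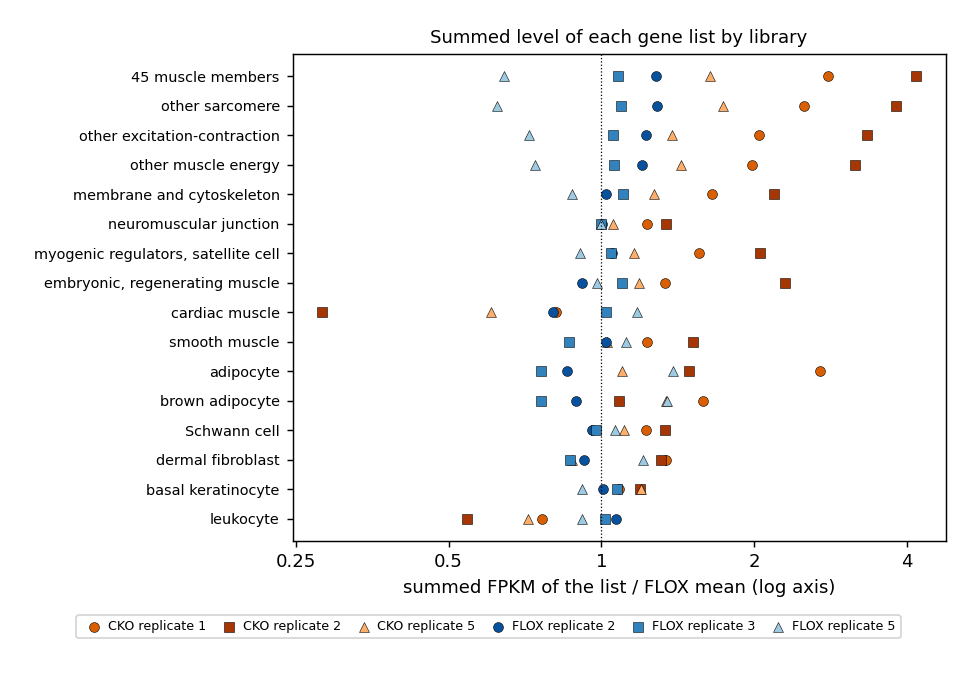
Summed FPKM of each gene list in each library, divided by the mean of the 3 FLOX libraries, on a log axis. The muscle members span 0.642 to 4.17, and the adipocyte list has another order of libraries, with CKO replicate 1 at 2.70 and FLOX replicate 5 at 1.38.

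Markers of other tissues give the setting of these values. Of 6 cardiac genes 2 could be tested, with a median of -0.47, and neither passed. The cardiac markers Myh6 and Ryr2 did not exceed 0.04 FPKM and Nppa not 0.12 FPKM, while the means in CKO and FLOX skin were 3.59 ± 2.21 and 7.42 ± 1.93 FPKM for the atrial light chain gene Myl7 and 1.22 ± 0.121 and 1.17 ± 0.294 FPKM for Tnni3, cardiac troponin I. The 9 smooth muscle genes summed to 97.6 to 144 FPKM in CKO and 82.1 to 106 FPKM in FLOX libraries, which overlap, and Acta2, smooth muscle actin, measured 45.2 ± 9.59 and 41.6 ± 6.49 FPKM and Tagln, an actin-binding protein of smooth muscle, 35.7 ± 6.23 and 24.4 ± 3.97 FPKM. None of the 8 tested smooth muscle genes passed (median 0.32). Adipocyte genes were positive for 11 of 11 with none past the test (median 0.88). Their sums were 495 to 1217 FPKM in CKO and 342 to 624 FPKM in FLOX libraries, highest in CKO replicate 1, with Fabp4 at 459 ± 207 and 296 ± 121 FPKM and Cfd at 154 ± 99.7 and 53.8 ± 13.4 FPKM. FLOX replicate 5, lowest in muscle genes, was the highest FLOX library in adipocyte genes. Of 3 tested brown adipocyte genes none passed (median 0.49), with Elovl3 at 42.1 ± 8.72 and 27.0 ± 16.0 FPKM and Cidea at 33.2 ± 6.71 and 23.5 ± 5.72 FPKM, genes that sebaceous glands also express. The third tested gene of that list, Dio2, a thyroid hormone deiodinase named after its values were seen, went the other way, at 4.97 ± 0.403 and 9.53 ± 4.15 FPKM in CKO and FLOX libraries, with every CKO value below every FLOX value (log2 fold change -0.75, limma adjusted p = 0.125), and Ucp1 did not exceed 0.12 FPKM.

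Nerve, epidermal, dermal and immune markers complete the setting. The 6 Schwann cell genes had a median of 0.41 and summed to 179 to 215 FPKM in CKO and 155 to 172 FPKM in FLOX libraries. Pmp22 measured 122 ± 9.47 and 110.5 ± 7.59 FPKM and Mbp 37.7 ± 4.33 and 27.5 ± 1.03 FPKM. The 7 basal keratinocyte genes had a median of 0.31 with none past the test, and Krt14 measured 3946 ± 180.1 and 3582 ± 230.4 FPKM and Krt5 1124 ± 191 and 828 ± 158 FPKM. The 6 dermal fibroblast genes had a median of 0.18 with none past the test, and Dcn measured 1553 ± 147 and 1516 ± 176 FPKM and Col3a1 973 ± 319 and 817 ± 214 FPKM. All 7 leukocyte genes were negative (median -0.57), and Cd53 fell (119 ± 17.1 against 219 ± 23.2 FPKM, log2 fold change -0.88, SE 0.13, limma adjusted p = 0.047). CKO replicate 2, highest in muscle genes, had the lowest leukocyte sum, at 965 FPKM against 1274 to 1900 FPKM in the other 5 libraries. The FLOX libraries did not run opposite in this way. FLOX replicate 5, lowest in muscle genes, also had the lowest FLOX leukocyte sum, at 1632 FPKM against 1804 and 1900 FPKM. Tyrobp measured 429 ± 97.2 and 664 ± 40.7 FPKM and Cd52 206 ± 37.9 and 261 ± 37.4 FPKM. The part of these other tissues in the muscle values was not tested.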

How the data were processed

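Values analysed are the deposited FPKM of 6 libraries, named as such per the file headers, with 2 decimals and NCBI Gene IDs. Per the labels' protocols, oligo(dT)-purified mRNA of skin was read as single-end fragments, and reads were aligned with HISAT, per the submitters' processing notes. The authors' read counter and build are unstated (not given in the sources used here). FPKM depends on the gene model lengths and on how reads of close copies were shared.

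A filter of 1 FPKM or more in 3 or more libraries kept 12994 of 18939 genes, which were fitted in R 4.3.3 with limma 3.58.1 on log2(FPKM + 1), CKO minus FLOX, with an intensity trend, no covariate, two-sided tests and Benjamini-Hochberg adjustment at 0.05. The test was checked on simulated data in which genes varied independently, unlike the members here, so that check does not cover genes that vary together. The 45 members, their role groups and the other lists were chosen with earlier results of these data known. Values of every library were given for called members, the 2 most abundant of each role group and some others. The remaining members were given by means, ranges or fold changes, as was Dio2, added after its values were seen. Of the other lists the called genes and the 2 most abundant were named, with defining markers added; a few of these are not reported here. Means are ± SD of 3 libraries. Promoter sequences are from RefSeq (GRCm38.p6), with 33 of 45 genes matched by NCBI Gene ID. Alternatives covered pseudocount, filter, scaling, empirical Bayes settings, array weights, replicate number and each library left out.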

Additional observations from a re-analysis of the deposited data

How the results depend on the processing

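The median log2 fold change of the members (1.38) stayed within the spread between libraries (0.58) under all 17 alternatives, from 1.00 with a pseudocount of 5 to 1.65, and from 1.08 to 1.65 when 1 library was left out. The number of members past the test moved between 0 and 22 when 1 library was left out, where 0 to 1.74% of all tested genes were called higher. The member count was 1 with a pseudocount of 0.1 or 5, without the intensity trend or with robust empirical Bayes (0.0308 to 0.362% of all tested genes). It was 0 with no filter, with the filter at 5 FPKM (which leaves 27 members and removes Myh2 and Jsrp1) or after quantile normalization. With no filter and after quantile normalization no gene of the whole table was called higher, and with the 5 FPKM filter 0.751% were. At an unadjusted p under 0.05 these 3 settings still had 39 of 45, 24 of 27 and 36 of 41 members higher. Median-ratio scaling, scaling to genes outside the muscle lists and array weights gave 2, where 0.323 to 0.8% of all tested genes were called higher.

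With the replicate block, 32 members passed, where 0.9% of all tested genes were called higher, and Tnni1 turned to -0.024 (limma adjusted p = 0.985). Only numbers 2 and 5 occur in both groups, so CKO replicate 1 and FLOX replicate 3 added nothing to this contrast. Little was then left to estimate the spread from. The deviations of same-numbered libraries correlated at 0.13 and -0.11. What a shared number stands for is not given, and these correlations cannot settle it. With 1 FPKM added to both genes, the fast to slow difference (CKO minus FLOX) became 1.14 instead of -0.35 for the myosin heavy chains and 0.20 instead of 1.92 for myosin binding protein C. Myh7 did not exceed 1.36 FPKM in any library, and Mybpc2 measured 0.04 to 1.33 FPKM in FLOX but 1.75 to 5.78 FPKM in CKO libraries. Without 1 library it ran from -0.68 to -0.05 and from 0.75 to 2.68 for these pairs, from 0.81 to 1.35 for troponin T, 0.84 to 1.72 for troponin I and 0.57 to 1.30 for the essential light chain. For troponin C (-0.04 to 0.58) and the regulatory light chain (-0.25 to 0.27) the sign changed. Depth is unknown, so values under 1 FPKM have no counting error attached.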
